A study of Pleuronichthys verticalis with 38 samples.

Results

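Livers of 12 hornyhead turbot (Pleuronichthys verticalis) injected with a mixture of polychlorinated biphenyls (PCBs) were compared with livers of 13 turbot injected with a mixture of polybrominated diphenyl ethers (PBDEs), among 38 fish in all. Fish were taken by their titles: low PCB (1 µg per g body weight, 5 fish), high PCB (10 µg per g, 7 fish), low PBDE (0.5 µg per g, 7 fish) and high PBDE (5 µg per g, 6 fish). The other 13 fish were 6 oil controls and 7 seawater controls. Exposed fish received the compounds in 1 injection of oil into the body cavity, oil controls received peanut oil alone, and seawater controls received no injection. Every liver was taken at 96 h, and each array held the RNA of 1 fish. The PCB mixture held 13 congeners and the PBDE mixture held BDE47, BDE99 and BDE100. The PCB dose was above the PBDE dose by mass at each level, so the mixtures were compared as given and not at equal doses. The PCB fish were 5 females and 7 males, whereas the PBDE fish were 2 females, 10 males and 1 immature animal. Low PCB held 4 females and 1 male, and high PBDE held 5 males, 1 immature fish and no female.

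Both classes are pairs of aromatic rings carrying halogens. In PCBs the rings are joined directly and carry chlorine, and in PBDEs they are joined through an oxygen atom and carry bromine. Some PCB congeners, PCB118 and PCB105 among them, bind the aryl hydrocarbon receptor of mammals, a transcription factor that switches on detoxification enzymes of the liver. Congeners such as PCB153 act in mammals mainly through the nuclear receptors CAR and PXR, which control drug-metabolising enzymes, and PBDEs activate PXR in mammals. PBDEs and their hydroxylated products also resemble thyroid hormones in structure. The array files pair each probe with a contig number and with no gene name or sequence. The genes of these pathways and the markers of liver cells were therefore not looked up. Probes are given by their identifiers, at most 2 higher and 2 lower in each comparison.

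Of 14757 non-control probes on the array, 10492 were bright enough to test. A level is the log2 signal relative to the 75th percentile of the same array, so that a negative level lies below that percentile. This percentile averaged 113 ± 40.7 intensity units in PCB fish and 129 ± 30.9 in PBDE fish (SD, n = 12 and 13, two-sided permutation p = 0.271). In PCB fish 8612 ± 959 probes were well above background, against 8884 ± 817 in PBDE fish (permutation p = 0.465). The dimmest array, that of high PCB 32, was alone on its slide. The arrays lay on 8 slides scanned on 3 days, and 7 slides held fish of both mixtures. The number of fish limits the precision of every comparison.

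PCB and PBDE livers could not be told apart probe by probe. Averaged over both dose levels, with sex in the model, 0 of 10492 probes (0%) passed limma's test at an adjusted p under 0.05, and the smallest adjusted p was 0.728. The unadjusted p was under 0.05 for 554 probes, 5.28% of those tested, where such a threshold gives 5% when nothing differs. Of these, 275 (2.62%) were higher and 279 (2.66%) lower in PCB fish. The split moved with the processing, to 240 higher of 608 under quantile normalization and 125 higher of 215 under normexp background correction. With no filter on dim probes 14740 were tested, and 468 of 753 were higher. For 0 of 10492 probes did all PCB fish lie above, or all below, the PBDE fish. These are levels of bulk liver RNA, in which fewer cells of a type and less RNA per cell cannot be told apart.

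**Figure D1:**
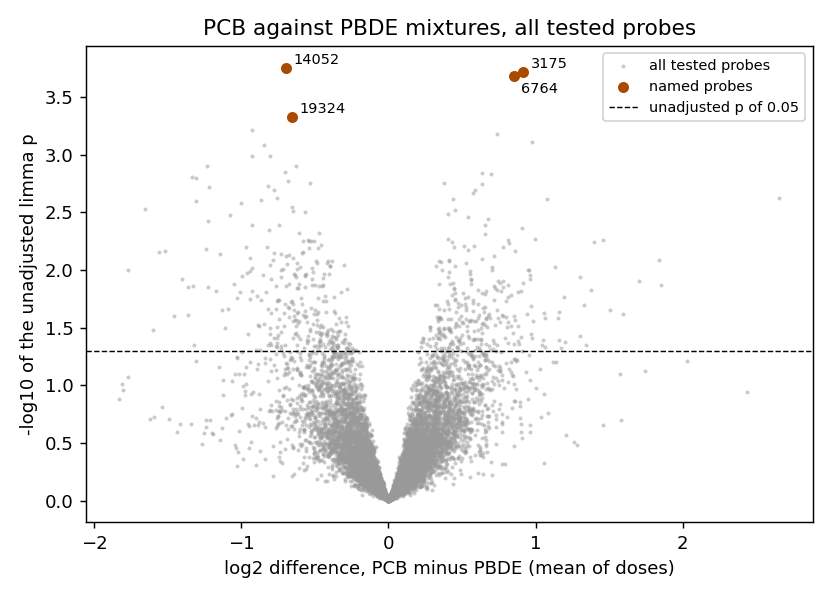
Each point is 1 of the 10492 tested probes, with the log2 difference of PCB minus PBDE fish (mean of doses) on the x axis and −log10 of the unadjusted limma p on the y axis. The probes named in the text for the mean of doses carry the number of their identifier. The 554 probes at an unadjusted p under 0.05 fall in nearly equal numbers on the higher side (275) and the lower side (279).

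The intervals around these differences bounded the mean over both dose levels, in which opposite differences at the low and high doses cancel. For the median probe the interval at each dose level was wider, as given below. For the median probe the 95% interval reached 0.49 log2 units (1.41-fold) to either side of the estimate. For 8237 probes (78.5%) the whole interval lay within a 2-fold difference in either direction, and for 10296 (98.1%) within a 4-fold difference. The interval of the other 196 probes reached beyond 4-fold. The estimate itself was above 2-fold for 108 probes, 43 higher and 65 lower in PCB fish. Each interval stands for 1 probe, with no allowance for how many were tested.

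Mixture accounted for little of what set the fish apart. Over the 25 exposed fish it took on average 4.21% of a probe's variance, where a label unrelated to the levels takes 4.17%. Dose group took 11.52% (12.5% if unrelated) and sex 8.06% (8.33% if unrelated). Slide took 37.9% (29.2% if unrelated) and scan day 14.5% (8.33% if unrelated). The first 3 principal components held 9.57%, 9.09% and 6.53% of the variance, and for none did the scores of the mixtures differ beyond their spread (permutation p adjusted over the 3 = 0.649 for each). Across probes, the median correlation of a pair of livers was 0.944 among PCB fish, 0.950 among PBDE fish and 0.946 between a PCB and a PBDE fish.

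With slide as a block 0 of 10492 probes passed, and 668 were at an unadjusted p under 0.05. When nothing differs, such a threshold gives 524.6 of 10492 probes (5%), also in the fits that follow. Within scan day 1 (3 PCB and 4 PBDE fish), day 2 (6 and 7) and day 3 (3 and 2), 0 probes passed in each, with 293, 734 and 451 at an unadjusted p under 0.05. Within single slides, which held 1 or 2 fish of each mixture, 0 probes passed on 6 of 7 slides. On slide 6, with 2 PCB fish and 1 PBDE fish, 2 passed (HT_SCCWRP_3971 and HT_SCCWRP_59215, limma adjusted p = 0.00359 and 0.0285), in a fit that lends the lone fish the spread of the other arm. Both were not well above background in the 2 PCB fish and were at 8.61 and 8.18 in low PBDE 5, while over all fish their adjusted p was 0.972 and 0.958. Of the 25 fish left out in turn, low PCB 33, the male of its group, moved the count most. Without it 1108 probes (10.6%) were at an unadjusted p under 0.05, 599 of them higher in PCB fish, and still 0 passed (smallest limma adjusted p = 0.0513). Low PCB then held only females, and the part of sex in this count was not tested.

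The 2 higher and 2 lower probes of smallest p are described by fish. Under normexp background correction HT_SCCWRP_6764, HT_SCCWRP_14052 and HT_SCCWRP_19324 had smaller differences than given below, 0.46, -0.28 and -0.32. This correction adds an offset of 50 intensity units to every signal, which by itself shrinks log2 differences of dim probes. How much of the decrease came from the offset was not tested. HT_SCCWRP_6764 had levels of -0.08, 0.54, -0.64, -0.05 and 0.93 in low PCB fish, and in high PCB fish its lowest, median and highest levels were -0.54, -0.17 and 0.60. In low PBDE fish they were -1.57, -1.16 and -0.36, and in high PBDE fish -1.08, -0.53 and -0.17. All 12 PCB fish lay above the PBDE mean and 8 of them above every PBDE fish, but the groups overlapped. The log2 difference was 0.85 (SE 0.20, interval 0.43 to 1.27, limma adjusted p = 0.728), and PCB fish were higher on 7 of 7 slides. The PCB mean of 0.04 ± 0.48 (SD, n = 12) lay above the PBDE mean of -0.79 ± 0.47 (SD, n = 13), and oil controls, at -0.71 ± 0.40 (SD, n = 6), were near the PBDE fish.

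HT_SCCWRP_3175 was also at higher levels after PCBs. Low PCB fish had 1.58, 2.19, 1.34, 1.08 and 2.03, and high PCB fish had a lowest level of 0.48, a median of 1.36 and a highest of 1.60. In low PBDE fish these were -0.28, 0.28 and 1.43, and in high PBDE fish -0.07, 0.37 and 1.90. Of the PCB fish 10 of 12 lay above the PBDE mean, yet the immature high PBDE fish lay above every high PCB fish. The log2 difference was 0.92 (SE 0.22, interval 0.47 to 1.36, limma adjusted p = 0.728), with PCB fish higher on 6 of 7 slides. Here it was the PCB mean, 1.37 ± 0.51 (SD, n = 12), that lay near the controls, with PBDE fish at 0.58 ± 0.67 (SD, n = 13), oil controls at 1.40 ± 0.32 (SD, n = 6) and seawater controls at 1.66 ± 0.29 (SD, n = 7).

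HT_SCCWRP_14052, lower after PCBs, had the smallest p of all probes. Low PCB fish had levels of -2.33, -2.41, -1.93, -1.66 and -1.95, and high PCB fish had a lowest, median and highest level of -2.64, -1.81 and -1.61. In low PBDE fish these were -1.53, -1.18 and -0.67, and in high PBDE fish -2.14, -1.56 and -0.87. All 12 PCB fish lay below the PBDE mean, and 3 of them below every PBDE fish. The log2 difference was -0.69 (SE 0.16, interval -1.03 to -0.36, limma adjusted p = 0.728), with PCB fish lower on 6 of 7 slides. PCB fish averaged -1.98 ± 0.33 (SD, n = 12) and PBDE fish -1.32 ± 0.42 (SD, n = 13), beside -1.17 ± 0.35 in oil controls (SD, n = 6) and -1.35 ± 0.33 in seawater controls (SD, n = 7).

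HT_SCCWRP_19324 had nearly the same difference at both dose levels, -0.63 at the low doses and -0.67 at the high doses. Its levels were -1.07, -0.57, -0.70, -0.21 and -0.07 in low PCB fish, and -1.49, -0.48 and 0.30 (lowest, median and highest) in high PCB fish. They were -0.57, -0.30 and 0.40 in low PBDE fish and -0.10, 0.10 and 0.44 in high PBDE fish. The groups overlapped, although 11 of 12 PCB fish lay below the PBDE mean. The log2 difference over both doses was -0.65 (SE 0.17, limma adjusted p = 0.821), with PCB fish lower on 5 of 7 slides.

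These 4 probes were well above background in all 25 fish. The sexes were unevenly spread over the mixtures, so the 7 male PCB fish were also set beside the 10 male PBDE fish. The male levels were 1.29 ± 0.40 and 0.53 ± 0.61 for HT_SCCWRP_3175, and -0.08 ± 0.46 and -0.79 ± 0.44 for HT_SCCWRP_6764 (SD, PCB males before PBDE males). They were -1.96 ± 0.33 and -1.29 ± 0.33 for HT_SCCWRP_14052, and -0.70 ± 0.42 and 0.02 ± 0.34 for HT_SCCWRP_19324. The direction of each of the 4 was the same among males. The probes were chosen on these same fish, most of which were males, so the part of sex was not tested by this. The males also differed in dose, with 6 high and 1 low PCB fish beside 5 high and 5 low PBDE fish.

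**Figure D2:**
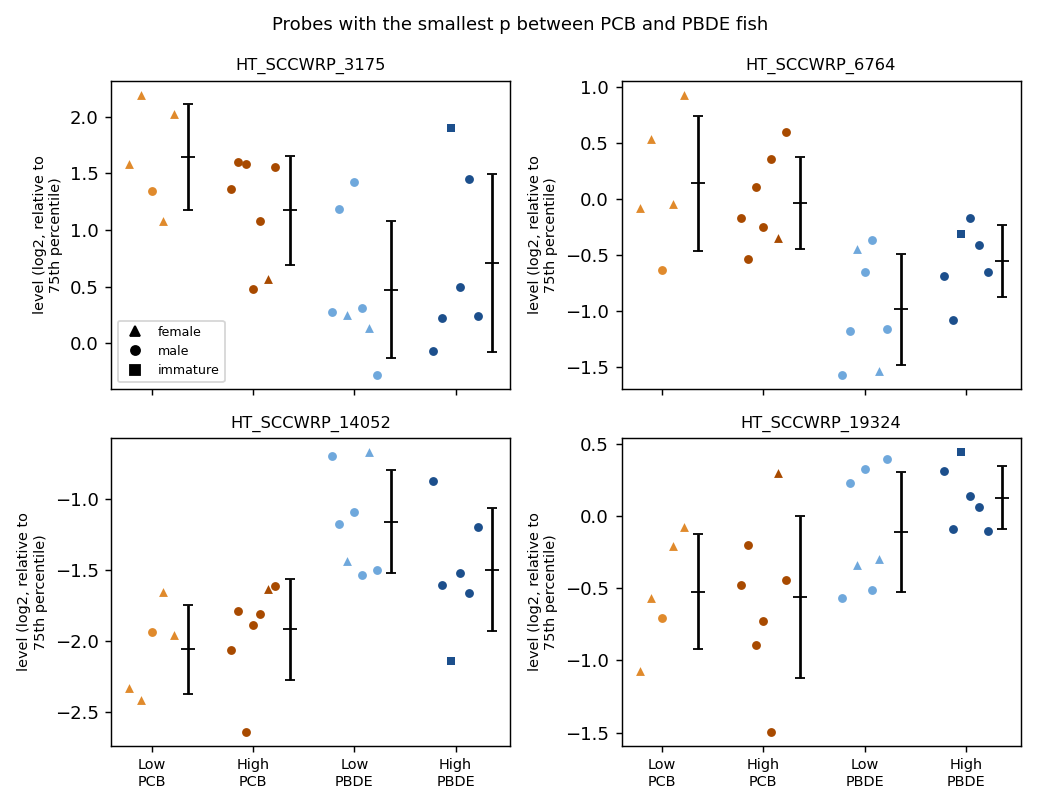
Levels (log2 signal relative to the array's 75th percentile, y axis) of the 4 probes named for the mean of doses are plotted for each fish of the low PCB, high PCB, low PBDE and high PBDE groups (x axis). Triangles are females, circles males and the square the immature fish, the bar is the mean ± SD, and for each probe the PCB and PBDE fish overlap while at least 10 of 12 PCB fish lie on 1 side of the PBDE mean.

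At the low doses, 5 PCB fish (1 µg per g) were set against 7 PBDE fish (0.5 µg per g). Again 0 of 10492 probes (0%) passed (smallest limma adjusted p = 0.986). The unadjusted p was under 0.05 for 445 (4.24%), of which 235 (2.24%) were higher and 210 (2%) lower in PCB fish. The median interval reached 0.72 log2 units (1.64-fold) to either side, and 5510 probes (52.5%) had an interval within 2-fold. The probes with the smallest p included HT_SCCWRP_3175 (1.26, SE 0.32) and HT_SCCWRP_14052 (-0.94, SE 0.24) again. The other probe of the higher side, HT_SCCWRP_70640, had levels of -4.87, -1.53, -2.10, -4.21 and -3.04 in low PCB fish, and -5.68, -4.94 and -4.23 (lowest, median and highest) in low PBDE fish. It was well above background in 3 of 5 low PCB fish and 0 of 7 low PBDE fish (limma adjusted p = 0.986). A ratio of means with a floor put it 1.68-fold higher in low PCB fish. For the low PBDE arrays, each array's faintest signal well above background is the floor and replaces a lower level of the probe. The ratio is no strict lower bound, since the low PCB mean includes fish not well above background and sampling error is left out. The ratio holds for this scaling only. The log2 difference of HT_SCCWRP_70640 was 2.46 (SE 0.60) here, and 0.15 under normexp background correction, whose offset shrinks differences of dim probes.

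On the lower side, HT_SCCWRP_23972 had levels of -0.82, -0.66, 0.10, 0.27 and 0.45 in low PCB fish, and 0.03, 1.29 and 1.58 (lowest, median and highest) in low PBDE fish. The low-dose log2 difference was -1.29 (SE 0.33, limma adjusted p = 0.986, -0.85 under normexp), beside -0.40 (SE 0.31) at the high doses. The ranges overlapped, with 2 of 5 low PCB fish below every low PBDE fish. Without low PCB 33 the low-dose comparison had 1028 probes (9.80%) at an unadjusted p under 0.05, and 1 passed. Low PCB then held only females, beside 2 females and 5 males in low PBDE. Sex and mixture were then set apart only by the sex term fitted over all groups, and the part of sex was not tested. That probe was HT_SCCWRP_30607, at -1.49 (log2 difference, SE 0.26, limma adjusted p = 0.0183), against -0.90 (SE 0.29, adjusted p = 0.992) with all fish. Its level was 2.28 in low PCB 33, between 0.20 and 1.06 in the other low PCB fish, and between 1.39 and 2.23 in low PBDE fish.

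At the high doses, 7 PCB fish (10 µg per g) were set against 6 PBDE fish (5 µg per g). Of 10492 probes 0 (0%) passed (smallest limma adjusted p = 0.706). The unadjusted p was under 0.05 for 415 (3.96%), of which 167 (1.59%) were higher and 248 (2.36%) lower in PCB fish. Under normexp background correction 114 of 198 were higher. With no filter on dim probes 14740 were tested, and 366 of 611 were higher. The median interval reached 0.66 log2 units (1.57-fold) to either side, and 6239 probes (59.5%) had an interval within 2-fold. The 2 lower probes of smallest p were dim in PCB fish. HT_SCCWRP_49175 was at -6.02, -5.46 and -4.15 (lowest, median and highest) in high PCB fish, against -4.91, -2.18 and -0.82 in high PBDE fish. It was well above background in 0 of 7 high PCB fish and 5 of 6 high PBDE fish. It passed the filter of at least 5 arrays only through the high PBDE fish, where it was high. With the same kind of floor it was 2.31-fold lower in high PCB fish in this scaling (limma adjusted p = 0.706). The log2 difference was -2.99 (SE 0.70), and -0.36 under normexp background correction, whose offset shrinks differences of dim probes.

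Low PCB and low PBDE fish did not show the same pattern for HT_SCCWRP_49175, which was well above background in 1 of 5 and 1 of 7 of them. HT_SCCWRP_26727 was at -5.98, -5.51 and -4.33 in high PCB fish (0 of 7 well above background), against -4.97, -3.05 and -2.58 in high PBDE fish (5 of 6). With the same kind of floor and in this scaling it was 1.20-fold lower in high PCB fish (limma adjusted p = 0.706). Its log2 difference was -1.91 (SE 0.44), and 0.0029 under normexp background correction, whose offset shrinks differences of dim probes. No fish of low PCB (0 of 5) or low PBDE (0 of 7) had this probe well above background, and no oil or seawater control did. The filter of at least 5 arrays was therefore passed only through the high PBDE fish, where the level was high. Its small p is thus no separate support for a difference.

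On the higher side at the high doses, HT_SCCWRP_9690 was bright in every fish. Its lowest, median and highest levels were 2.96, 3.33 and 3.87 in high PCB fish, against 1.99, 2.72 and 3.39 in high PBDE fish, and the ranges overlapped. The log2 difference was 0.76 (SE 0.23, limma adjusted p = 1.00). HT_SCCWRP_49519 averaged -2.66 ± 0.71 in high PCB fish (SD, n = 7) and was well above background in 6 of them, against -3.77 ± 0.83 in high PBDE fish (SD, n = 6) and 2 of them. Its log2 difference was 1.29 (SE 0.38, limma adjusted p = 1.00), and 0.43 under normexp.

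The low-dose and high-dose comparisons used separate fish, and their differences were set side by side. Across the 10492 probes the low-dose and the high-dose difference had a Pearson r of 0.02 and a Spearman rho of 0.11, and 54.7% of probes had the same sign. These values describe probes of the same arrays, which are not independent and share the sex term of the model. Of the 445 probes at an unadjusted p under 0.05 at the low doses, 288 (64.7%) had the same sign at the high doses. Of the 415 at the high doses, 253 (61.0%) had the same sign at the low doses. Both conditions held for 30 probes, and 18 of these had the same sign. The 30 were 6.74% of the low-dose list, beside 3.96% of all probes on the high-dose list. They were 7.23% of the high-dose list, beside 4.24% of all probes on the low-dose list.

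The likeness of the doses moved with the model and with the fish used. With each dose fitted alone, so that the doses shared no sex term, r was -0.11 and 49.5% of probes had the same sign. The same sign at the other dose was then held by 49.7% of the low-dose and 52.7% of the high-dose list. Of the 28 probes on both lists, 12 had the same sign. Among males, where low PCB is the single fish 33, r was -0.20. Without low PCB 33, which leaves only females in low PCB, r was 0.15 and the share of the same sign 59.6%. The share was then 76.8% of the low-dose and 71.1% of the high-dose list.

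**Figure D3:**
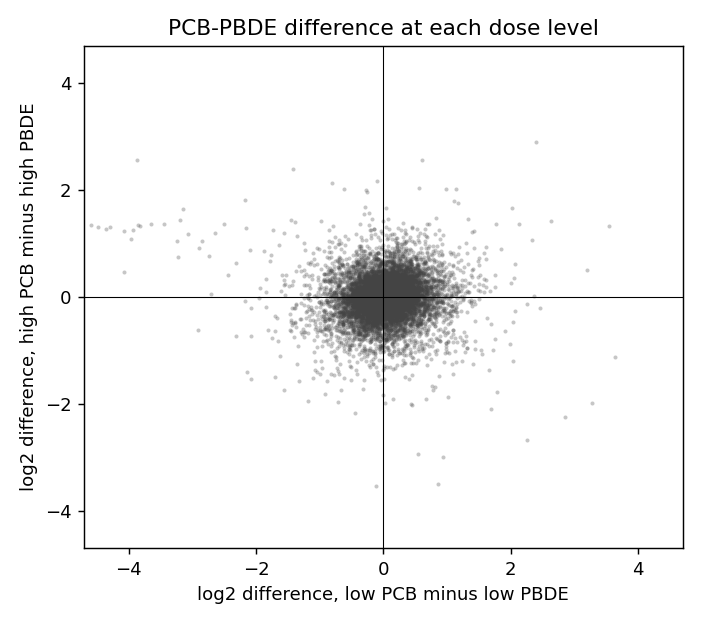
Each point is 1 of 10492 probes, with the log2 difference of PCB minus PBDE fish at the low doses on the x axis and at the high doses on the y axis. Most points form a round cloud (Pearson r of 0.02 over all), 54.7% lie in the quadrants of equal sign, and a streak on the left holds most of the 36 probes whose low-dose difference was below -2, 29 of them above 0 at the high doses.

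The streak at the left of the plot of both dose levels was a set of probes that varied widely between fish of every group. It was singled out after its values were seen and is given without a test. There were 36 probes with a low-dose difference below -2, from -4.60 to -2.08, and 29 of them were higher in PCB fish at the high doses, with a median high-dose difference of 1.13 over the 36. Their mean level was -2.65, 0.15, -3.38, -3.14 and 0.56 in low PCB fish, so that 3 of 5 fish were low. In low PBDE fish the lowest, median and highest were -1.64, 1.82 and 3.26. The same values were -1.60, -0.01 and 2.83 in high PCB fish and -2.12, -1.02 and 2.99 in high PBDE fish. Control fish varied almost as widely, from -2.08 to 1.05 after oil and from -2.43 to 2.00 in seawater.

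The test of whether the difference between the mixtures itself differed between doses found 0 of 10492 probes (0%) past an adjusted p of 0.05 (smallest limma adjusted p = 0.426). The unadjusted p was under 0.05 for 316 (3.01%), 146 (1.39%) with a higher and 170 (1.62%) with a lower difference at the high doses. Under normexp the split was 255 higher of 348. Its median interval reached 0.95 log2 units (1.94-fold) to either side, so that 3385 probes (32.3%) had an interval within 2-fold. The smallest p belonged to HT_SCCWRP_16449, whose levels crossed. It was at -1.14, -0.48, -1.26, -1.30 and -0.60 in low PCB fish, against -3.63, -2.64 and -1.82 (lowest, median and highest) in low PBDE fish. In high PCB fish these were -3.63, -2.83 and -1.11, against -2.51, -1.39 and -0.96 in high PBDE fish.

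For HT_SCCWRP_16449 the low PCB and low PBDE fish did not overlap, whereas the high-dose groups did. The number of probes without overlap at the low doses was not counted, and HT_SCCWRP_16449 was picked by its small p. Its log2 difference was 1.56 (SE 0.42) at the low doses and -1.06 (SE 0.38) at the high doses, a change of -2.61 (SE 0.56, limma adjusted p = 0.426), which was -0.56 under normexp. HT_SCCWRP_33880 changed sign in the same way, with 1.70 (SE 0.67) at the low doses and -2.10 (SE 0.62) at the high doses (change -3.80, SE 0.90, limma adjusted p = 0.759, -2.07 under normexp). On the other side, HT_SCCWRP_1623 had a difference of -1.09 (SE 0.39) at the low doses and 0.70 (SE 0.36) at the high doses. HT_SCCWRP_993 had -0.63 (SE 0.28) and 0.59 (SE 0.26), and neither passed (limma adjusted p = 1.00 for both).

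Each mixture was also set against the oil controls, which both comparisons share. Averaged over doses, 0 of 10492 probes (0%) passed for PCBs (smallest limma adjusted p = 0.229) and 0 (0%) for PBDEs (smallest limma adjusted p = 0.713). The unadjusted p was under 0.05 for 1002 probes (9.55%) after PCBs, 417 (3.97%) higher and 585 (5.58%) lower than oil. After PBDEs it was so for 512 (4.88%), 247 (2.35%) higher and 265 (2.53%) lower. The counts themselves were not tested against each other, and without low PCB 33 they were 1443 (13.8%) and 536 (5.11%). The probes named for the mean of doses lay on either side of oil. HT_SCCWRP_6764 differed from oil by 0.80 (SE 0.25) in PCB fish and -0.05 (SE 0.24) in PBDE fish, and HT_SCCWRP_3175 by 0.14 (SE 0.27) and -0.77 (SE 0.25). HT_SCCWRP_14052 differed by -0.86 (SE 0.20) in PCB fish and -0.17 (SE 0.19) in PBDE fish, and HT_SCCWRP_19324 by -0.89 (SE 0.21) and -0.24 (SE 0.19).

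Probes that did pass against the controls gave a view of how each mixture stood on them. Of 10492 probes, 9 (0.0858%) passed for low PCB, 8 (0.0762%) for high PCB and 5 (0.0477%) for low PBDE against seawater, and 1 (0.00953%) when high PCB was set against oil. The remaining 4 comparisons of a dose group with a control had 0 (0%). Together 16 probes passed at least once, 11 of them only in a PCB comparison, 3 only in a PBDE comparison and 2 in both. Fish of both mixtures had been injected with oil, which seawater fish had not. The differences of PCB minus PBDE fish ran from -0.85 to 0.55. Of the 16, 6 were at an unadjusted p under 0.05, beside 554 of all 10492 probes (5.28%). All 6 were among the 11 that passed only in a PCB comparison. The 16 were chosen on values of these same fish, so this count is a description.

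The 2 probes that passed for both mixtures had close means after PCBs and after PBDEs. HT_SCCWRP_14044 averaged 2.41 ± 0.66 in PCB fish (SD, n = 12) and 2.48 ± 0.32 in PBDE fish (SD, n = 13), with oil controls at 1.23 ± 1.24 (SD, n = 6) and seawater controls at 0.56 ± 0.84 (SD, n = 7). HT_SCCWRP_15090 averaged 0.42 ± 0.56 in PCB fish, 0.61 ± 0.39 in PBDE fish, -0.13 ± 0.45 in oil controls and -0.93 ± 0.46 in seawater controls. Their differences of PCB minus PBDE fish were -0.10 (SE 0.28, limma adjusted p = 0.993) and -0.10 (SE 0.20, limma adjusted p = 0.989). Seawater fish lay lowest for both probes. Both were chosen because PCB and PBDE fish passed against the same seawater fish. Means of both mixtures far from seawater on 1 side, and so near each other, therefore followed largely from that choice. A missed threshold does not show that the mixtures act alike.

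Of the 16 probes, 3 had group means that were lowest in PCB fish, then higher in PBDE fish, oil controls and seawater controls in that order, and 4 had the opposite order. All 7 had passed only when PCB fish were set against seawater fish. PCB and seawater means at opposite ends therefore followed largely from that choice, and only the places of PBDE fish and oil controls were free. The 3 were HT_SCCWRP_19679, HT_SCCWRP_3011 and HT_SCCWRP_23972. HT_SCCWRP_19679 averaged -0.16 ± 0.59 in PCB fish (SD, n = 12) and 0.63 ± 0.66 in PBDE fish (SD, n = 13), then 0.95 ± 0.25 in oil controls (SD, n = 6) and 1.42 ± 0.31 in seawater controls (SD, n = 7). HT_SCCWRP_3011 averaged 3.60 ± 0.42 in PCB fish, 4.03 ± 0.48 in PBDE fish, 4.45 ± 0.27 in oil controls and 4.61 ± 0.31 in seawater controls. The differences of PCB minus PBDE fish were -0.76 (SE 0.23, limma adjusted p = 0.821) and -0.49 (SE 0.18, limma adjusted p = 0.838). Of the 4 highest in PCB fish (HT_SCCWRP_5637, HT_SCCWRP_13738, HT_SCCWRP_13553 and HT_SCCWRP_57380), HT_SCCWRP_13738 averaged 4.51 ± 0.23 in PCB fish, 4.37 ± 0.21 in PBDE fish, 4.24 ± 0.20 in oil controls and 3.82 ± 0.17 in seawater controls. None of these 7 passed the test between PCB and PBDE fish.

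**Figure D4:**
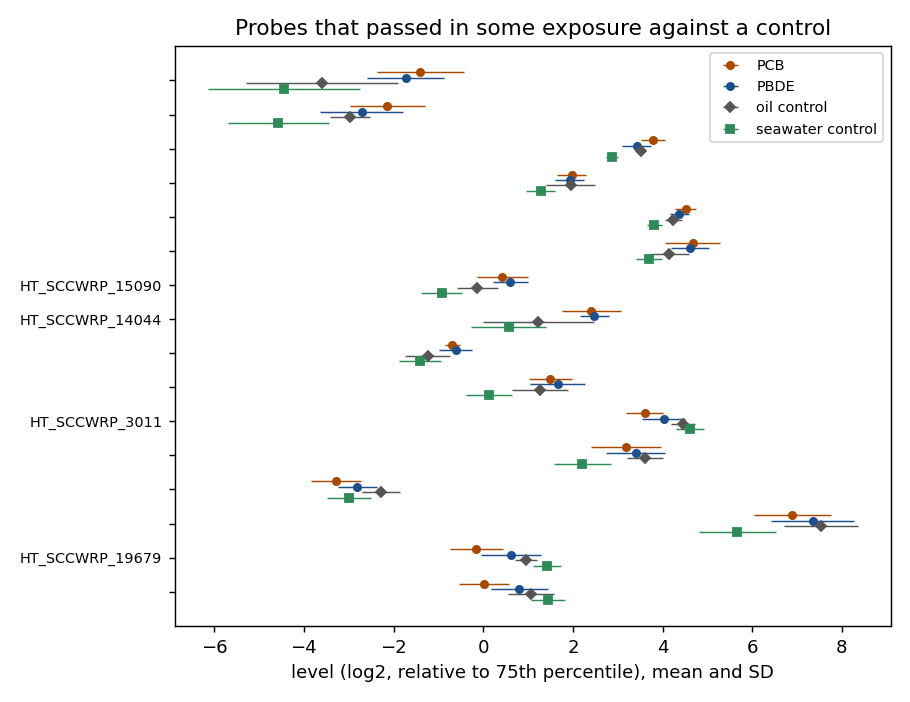
For the 16 probes that passed against a control, the mean level (log2 signal relative to the array's 75th percentile) of PCB fish, PBDE fish, oil controls and seawater controls is shown as points with bars of SD, 1 probe per row. HT_SCCWRP_14044, HT_SCCWRP_15090, HT_SCCWRP_19679 and HT_SCCWRP_3011 are labelled. PCB and PBDE means lie close together beside their distance from seawater for HT_SCCWRP_14044 and HT_SCCWRP_15090, and apart for HT_SCCWRP_19679 (-0.16 and 0.63). HT_SCCWRP_14044 and HT_SCCWRP_15090 were chosen for passing against seawater after both mixtures, so their pattern follows largely from that choice.

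Dim probes were compared by the number of fish in which they were well above background. Of 6421 probes that varied in this, 0 (0%) passed Fisher's exact test (two-sided, smallest adjusted p = 1). The unadjusted p was under 0.05 for 79 (1.23%). A probe seen in only 1 fish, or in all but 1, cannot reach such a p, so the share expected here is below 5%. Of the 79, 14 were seen in more PCB fish and 65 in more PBDE fish. That split moved with the dimmest array: without high PCB 32 there were 54 (0.925% of 5838), 24 seen in more PCB fish and 30 in more PBDE fish. Among males (7 PCB and 10 PBDE fish) there were 72 (1.18% of 6089), 2 seen in more PCB fish and 70 in more PBDE fish. Another 5640 probes were well above background in all 25 fish and 2696 in none. Of the 14757 non-control probes, 459 were seen in PCB fish only and 727 in PBDE fish only, in each case in at most 7 fish. There were 12 PCB and 13 PBDE fish. The highest number of probes well above background on 1 array was 9502 in PCB fish and 10287 in PBDE fish. The part of single bright arrays in these counts was not tested.

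The smallest p in this comparison was that of HT_SCCWRP_12607, well above background in 7 of 12 PCB fish and 0 of 13 PBDE fish (Fisher's exact test, p = 0.00165, adjusted p = 1). It averaged -3.82 ± 0.40 in PCB fish and -4.77 ± 0.60 in PBDE fish (SD, n = 12 and 13). With faint PBDE levels raised to the floor of their array it was 1.02-fold higher in PCB fish. HT_SCCWRP_37931 was seen in 10 of 12 PCB fish and 4 of 13 PBDE fish (exact p = 0.0154, adjusted p = 1). In the other direction, HT_SCCWRP_15960 was seen in 1 of 12 PCB fish and 9 of 13 PBDE fish (exact p = 0.00361, adjusted p = 1). HT_SCCWRP_30327 was seen in 3 of 12 PCB fish and 11 of 13 PBDE fish (exact p = 0.00483, adjusted p = 1), and its level was lower in PCB fish on 7 of 7 slides.

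Over all tested probes, and with slide and scan day left in, PCB livers lay further from their own dose group than PBDE livers did. The spread of a fish is its median absolute deviation, over probes, from the mean of the other fish of its dose group. It averaged 0.431 ± 0.048 log2 units in PCB fish (range 0.356 to 0.511, SD, n = 12) and 0.382 ± 0.032 in PBDE fish (0.342 to 0.446, SD, n = 13). The two-sided permutation p was 0.00674, or 0.0404 adjusted over the 6 measures compared between mixtures on whole arrays. The permutation takes fish as independent, although each value rests on the other fish of its group. Number of fish and sex also differed between the groups. By group the mean was 0.449 ± 0.060 in low PCB, 0.419 ± 0.037 in high PCB, 0.398 ± 0.034 in low PBDE and 0.365 ± 0.021 in high PBDE. The ranges of the mixtures overlapped.

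The difference in spread moved with the slide. Without the dimmest array it was 0.0457 (permutation p = 0.00921), and leaving out each fish in turn it stayed between 0.0419 and 0.0559. After removing group and sex from each level it was 0.0413 (permutation p = 0.0371). After removing group, sex and slide it was 0.0153 (permutation p = 0.269), with 0.346 ± 0.040 in 11 PCB fish and 0.331 ± 0.026 in 13 PBDE fish, because high PCB 32 has no other fish on its slide. With scan day in place of slide it was 0.0247 (permutation p = 0.110). With only group and sex removed, over probes well above background on every array, it was 0.0333 (permutation p = 0.0957), beside 0.0413 over all tested probes. The part of the slides in this result was not tested further.

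**Figure D5:**
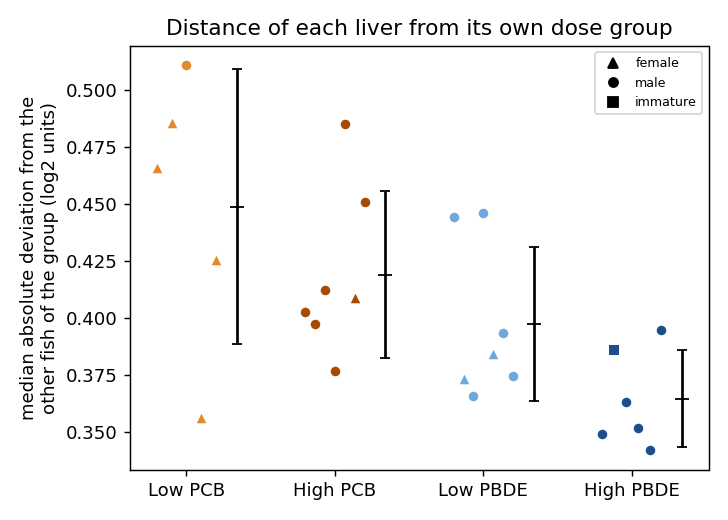
Spread of each exposed fish (median absolute deviation over probes from the mean of the other fish of its dose group, in log2 units, y axis) is plotted by group (x axis), with triangles for females, circles for males, a square for the immature fish, and bars for mean ± SD. Means fall in the order low PCB (0.449), high PCB (0.419), low PBDE (0.398) and high PBDE (0.365), with overlapping ranges.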

How the data were processed

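Liver RNA of 38 fish was hybridised to custom Agilent arrays with 1 colour, 1 fish per array. The authors read the scans with Feature Extraction 11.5.1.1, per the file headers, and the deposited intensity values are background-subtracted processed signals on a linear scale. The series' deposited value table differs from these by at most 0.497%, so it carries no further scaling or centring.

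Groups came from titles. The log2 processed signal, less the log2 of the 75th percentile of the 15207 non-control spots of its array, was averaged per probe. Probes well above background on at least 5 arrays were kept (10502), and 10 with outlier flags were left out. All 38 arrays were fitted with limma 3.58.1 (R 4.3.3) on group and sex, with an intensity trend and Benjamini-Hochberg adjustment over 10492 probes. Permutation tests used 100000 resamples. The limma fit was tested on simulated arrays with independent noise and without slide or scan day effects. Fish, comparisons and lists were chosen with earlier results of these data known. Named probes are the 2 of smallest p in each direction per comparison. Lists of pathway genes and cell type markers had been written down but could not be applied without gene names, so the liver label was not checked against markers. The study's labels give 7 to 9 fish per exposure, and 5 to 7 arrays per group were analysed here. The alternatives were normexp background correction (offset 50), quantile normalization, the series value table, no intensity trend, slide or scan day as a block, single days or slides, exposed groups only, fish weighted equally, no sex term, males only, no immature fish, no filter on dim probes, probes above background on every array, and each fish left out. Single days and slides were added after seeing the data. Probes found after their values were seen are HT_SCCWRP_30607, HT_SCCWRP_4192, HT_SCCWRP_3971, HT_SCCWRP_59215 and the probes that passed against controls.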

Additional observations from a re-analysis of the deposited data

Results flagged for a closer look

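In 84 checks for a single fish far from the rest of its group (12 on array measures, 72 on named probes), 5 fish stood apart, and chance alone flags about 1 in 20. In high PCB 32 only 6113 probes were well above background, where the rest of its group had 8282 to 9092. For HT_SCCWRP_993, high PCB 3 had a level of 6.89, against 5.03 to 5.46 in the rest of its group, and low PBDE 12 had 6.81, against 5.02 to 5.74. For HT_SCCWRP_33880, low PCB 29 was at 2.54, with its group at -1.50 to -0.39. For HT_SCCWRP_26727, high PBDE 4 was at -4.97 and not well above background, with its group at -3.28 to -2.58.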

How the results depend on the processing

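Of 237 refits of the comparisons, 232 had 0 probes past an adjusted p of 0.05 and the others 1 or 2, the 2 being within slide 6. With males only, where low PCB is the single fish 33 and is lent the spread of the other groups, 1 probe passed for the mean of doses and 1 for the low doses (both HT_SCCWRP_4192). With males only 1 also passed for the high doses, HT_SCCWRP_49175, which is known in high PCB fish only as a bound (limma adjusted p = 0.00525). Leaving out each fish, the low-dose count ran from 0 to 1, the 1 being without low PCB 33. The 16 tests of named probes kept their direction in 605 of 606 refits. The exception was HT_SCCWRP_26727 at the high doses under normexp (0.0029, limma adjusted p = 0.996), and the cause was not tested. Probes chosen for the smallest p on these same fish mostly keep their direction, and 400 of the refits left out only 1 fish. The kept direction is therefore no separate support for a difference. Under normexp 11 of these 16 differences were smaller by over 1.5 times, HT_SCCWRP_14052 at the low doses being -0.48. The normexp offset of 50 intensity units by itself shrinks differences of dim probes, so a decrease was partly set in advance. The likeness of the doses was -0.11 with each dose fitted alone, -0.20 with males only and 0.15 without low PCB 33. The difference in spread was 0.0153 with group, sex and slide removed, and 0.0247 with group, sex and scan day removed. With group and sex removed it was 0.0333 over the bright probes. With single fish left out it was 0.0419 to 0.0559. Counts at an unadjusted p under 0.05 were 215, 290 and 198 for the mean of, low and high doses under normexp, and 466 for PCB and 287 for PBDE against oil. When nothing differs, 524.6 of 10492 probes are expected. Over the 5564 probes above background on every array the number expected is smaller, 5% of 5564. The counts there were 342, 258 and 207, with 157 for the change with dose, 692 for PCB against oil and 308 for PBDE against oil. Without low PCB 33, with only females left in low PCB, they were 1108 for the mean of doses and 1028 for the low doses. With males only, again with 1 low PCB fish, they were 677 for the low doses, 873 for the change with dose and 610 for PCB against oil. No paired analysis was possible because the groups share no fish numbers. Dim probes limit the high-dose results, since HT_SCCWRP_49175 and HT_SCCWRP_26727 were not well above background in any high PCB fish. Both passed the filter on dim probes only through the high PBDE fish.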

Other observations

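HT_SCCWRP_4192, singled out after its values were seen, was at 0.35 in low PCB 33, against -2.32 to -2.02 in the other low PCB fish and -2.80 to -2.13 in low PBDE fish. With all fish its log2 difference of PCB minus PBDE fish was 0.56 (SE 0.24, limma adjusted p = 0.908) for the mean of doses. Low PCB 33 was the only male of its group and the fish of the brightest array among the 25, with a 75th percentile of 194 intensity units. The part of sex, brightness or the single animal in its levels cannot be told apart.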
